A study of Mus musculus with 4 samples.

Results

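The genes described here are 10 genes of the blood-brain barrier endothelium, chosen by symbol: the barrier transporters Mfsd2a, Abcb1a, Abcg2, Slco1a4, Slco1c1 and Slc2a1, the junction and receptor genes Cldn5, Cdh5 and Tek, and the leak marker Plvap. All 10 were found among the 46946 genes of the count table. PolyA RNA was sequenced from 4 untreated mouse tumours, which form a single group, PDGFB K27M, of genotype K27M. The sample labels trace the tumours to neural stem cells carrying PDGF and K27M, a change in histone H3, while the series text names injected DIPG (diffuse intrinsic pontine glioma) cells with K27M mutant histone H3.3, and the files used here do not settle which. The sources used here do not give strain, age or injection site of the mice. No normal brain or other control was part of these data, so no level below says whether a barrier gene was gained or lost in the tumours. The libraries, T14, T10, T8 and TUN in the authors' naming, held 21664889 to 24369339 counts, and the labels do not say whether the tumours grew in separate animals.

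The endothelial cells of brain capillaries are sealed by tight junctions, take up little by vesicles, and carry nutrients in and drugs out through a set of membrane transporters. Wnt signals from neural cells, read through the Fzd4 receptor complex, keep these genes on. Brain capillaries keep Plvap low after development, and its protein forms the diaphragms of fenestrae and vesicles in leaky vessels, which is why it serves as the counterpart of the transporters here.

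Promoter sequence is shown for the members whose levels ran in parallel between tumours and for a pair whose levels did not, to set their start regions side by side. RefSeq promoter windows (GRCm38.p6, the mm10 assembly) were found for 8 of the 10 members. Plvap and Cdh5 had no entry. The window of Abcb1a starts 92986 bases from the gene start in the count table and is therefore not printed. Each run below is the 250 bases before the RefSeq start, 5′ to 3′ on the gene's strand, with the core of the motif of the Wnt effectors TCF and LEF (CAAAG, or CTTTG on the other strand) in capitals. The first 3 genes are the organic anion carriers Slco1a4 and Slco1c1 and the angiopoietin receptor gene Tek, and the last 2 the tight junction gene Cldn5 and the lipid carrier gene Mfsd2a.
Slco1a4, chr6:141856221-141856470, minus strand: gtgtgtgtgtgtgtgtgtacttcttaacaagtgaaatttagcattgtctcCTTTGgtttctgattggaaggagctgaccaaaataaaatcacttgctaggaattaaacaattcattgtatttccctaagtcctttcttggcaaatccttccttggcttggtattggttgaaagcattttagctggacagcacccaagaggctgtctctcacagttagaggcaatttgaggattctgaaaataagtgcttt
Slco1c1, chr6:141524104-141524353, plus strand: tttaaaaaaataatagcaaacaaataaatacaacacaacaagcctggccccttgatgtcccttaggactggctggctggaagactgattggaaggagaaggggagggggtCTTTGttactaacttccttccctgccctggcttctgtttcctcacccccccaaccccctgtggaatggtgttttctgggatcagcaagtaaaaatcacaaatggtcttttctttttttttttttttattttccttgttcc
Tek, chr4:94739039-94739288, plus strand: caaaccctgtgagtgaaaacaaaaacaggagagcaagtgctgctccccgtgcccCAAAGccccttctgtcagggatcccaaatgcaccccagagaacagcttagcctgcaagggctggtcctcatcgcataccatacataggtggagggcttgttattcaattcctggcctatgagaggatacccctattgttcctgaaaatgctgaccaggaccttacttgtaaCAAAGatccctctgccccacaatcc
Cldn5, chr16:18776597-18776846, plus strand: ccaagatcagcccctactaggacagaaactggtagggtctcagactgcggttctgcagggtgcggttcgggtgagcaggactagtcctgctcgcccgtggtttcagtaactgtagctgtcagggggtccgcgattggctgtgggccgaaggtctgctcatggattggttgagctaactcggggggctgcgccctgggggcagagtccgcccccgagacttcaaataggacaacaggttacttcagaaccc
Mfsd2a, chr4:122961189-122961438, minus strand: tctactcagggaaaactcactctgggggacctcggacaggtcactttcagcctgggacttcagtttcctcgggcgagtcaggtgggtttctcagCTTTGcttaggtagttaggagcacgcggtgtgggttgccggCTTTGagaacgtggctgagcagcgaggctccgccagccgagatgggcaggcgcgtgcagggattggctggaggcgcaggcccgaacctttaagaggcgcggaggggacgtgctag
The TCF/LEF core occurred in 48.6% of 32851 promoter windows of the same length, and in the windows of Slco1a4 (1 match), Slco1c1 (1), Tek (2) and Mfsd2a (2). It did not occur in that of Cldn5. Nor did it occur in the windows, not printed, of Slc2a1 and of Abcg2 at the start nearest that in the count table. The core bound by ETS factors such as Erg (GGAA or TTCC) occurred in 93.4% of windows, at a mean of 2.91 matches, with 4 matches for Slco1a4, 8 for Slco1c1, 2 for Tek, 2 for Mfsd2a and 0 for Cldn5. A match of one core may share a base with a match of another, and a match describes the sequence without showing that a factor binds it.

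All 10 members were expressed in every tumour at more than 1 CPM (counts scaled to library size with TMM factors). Per exon length, in RPKM, Cldn5, Mfsd2a and Slc2a1 led. Cldn5, the main claudin of brain endothelial tight junctions, averaged 43.7 ± 10.1 RPKM (SD, n = 4). Mfsd2a, which carries lysophospholipid-bound docosahexaenoic acid and restrains vesicle transport, averaged 39.0 ± 7.61 RPKM. Slc2a1, the glucose transporter of the barrier, averaged 30.8 ± 5.16 RPKM. The efflux pump gene Abcg2 followed at 8.39 ± 1.22 RPKM, next to Plvap at 7.46 ± 1.09 RPKM. The thyroxine carrier gene Slco1c1 averaged 6.55 ± 2.47 RPKM and Cdh5, the adhesion molecule VE-cadherin of all endothelial cells, 4.95 ± 0.27 RPKM. The lowest were the efflux pump gene Abcb1a (3.26 ± 1.93 RPKM), Slco1a4 (3.47 ± 2.59 RPKM) and Tek (1.85 ± 0.973 RPKM). Ordered by mean log2(RPKM + 0.1), 2 of the 9 neighbouring pairs were separated, in the sense that the order held in 4 of 4 tumours and the mean difference exceeded its SD: Slc2a1 above Abcg2 by 1.86 ± 0.40 log2 units and Slco1a4 above Tek by 0.65 ± 0.51. The other 7 pairs of neighbours did not differ beyond their spread.

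**Figure D1:**
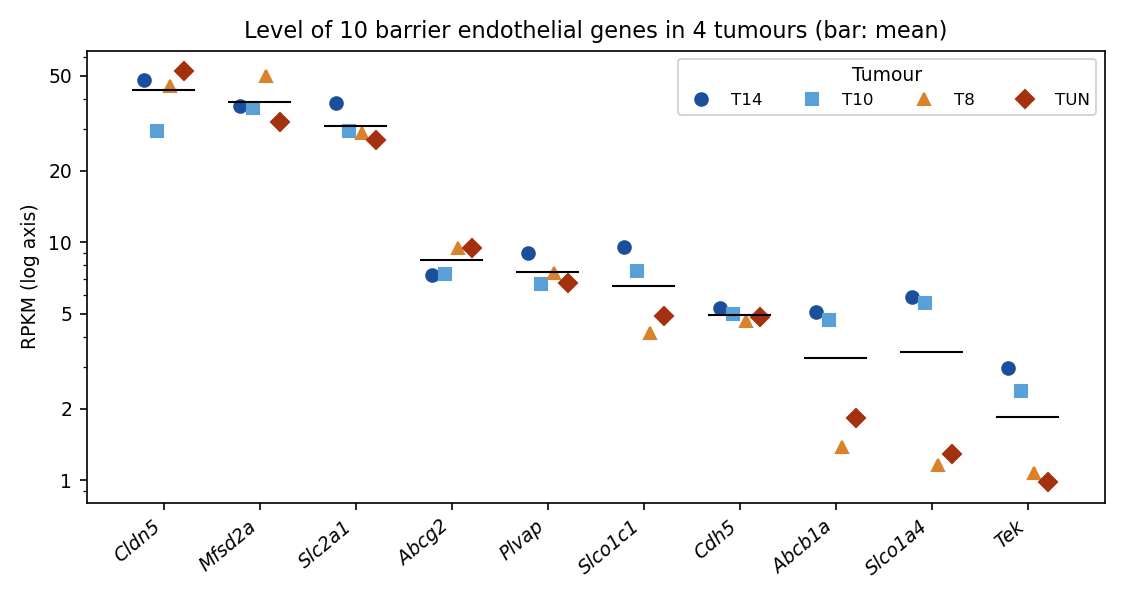
RPKM of the 10 genes in each tumour, on a log axis, ordered by mean log2 level, with a bar at the mean of the 4 tumours. Cldn5, Mfsd2a and Slc2a1 stand above the rest in every tumour, and the points of Slco1a4, Abcb1a and Tek split between T14 and T10 above and T8 and TUN below.

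Slco1a4, Abcb1a, Tek and Slco1c1 had the widest ranges between tumours. Slco1a4 (ENSMUSG00000030237.14, chromosome 6, 141805440 to 141856199 in mm10) stood at 37.7 CPM in T14 and 35.6 in T10, with 7.42 in T8 and 8.31 in TUN, a 5.08-fold range. T14 and T10 lay far above T8 and TUN, and counting error was small beside this gap (exact 95% binomial interval 35.2 to 40.3 CPM in T14 and 6.36 to 8.59 CPM in T8, which covers only the error of counting reads, as the libraries had no molecular identifiers). Slco1a4 was the only member that varied between tumours more than genes of like abundance, by the goodness of fit of an edgeR model with 1 mean for all tumours (adjusted p = 0.0478 over 14266 genes). By this test 4.34% of all genes were called, against 1 of 10 members, and with so few members the share is not a result about the set. The call was close to the threshold and was lost when any tumour was left out (edgeR adjusted p = 0.102 without T14, 0.261 without T10, 0.221 without T8 and 0.155 without TUN). In DESeq2 0 members were dispersion outliers, but that rule was much stricter and called 0.547% of all genes. Of its paralogs, Slco1a5 had 29, 12, 5 and 5 counts in T14, T10, T8 and TUN, Slco1a1 had 1, 0, 0 and 0, and Slco1a6 had 0 in each, and whether reads were shared with them was not tested.

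Abcb1a (ENSMUSG00000040584.8, chromosome 5, 8660077 to 8748575), the P-glycoprotein gene that brain endothelium uses in rodents, stood at 28.1 CPM in T14 and 25.9 in T10, with 7.58 in T8 and 10.002 in TUN. It had the same 2 high libraries as Slco1a4 and a 3.70-fold range, but did not pass the test (edgeR adjusted p = 0.652, unadjusted 0.0564). Its close paralog Abcb1b, with which reads may be shared, ran in another order, at 5.86 CPM in T14 and 7.94 in T10, with 8.34 in T8 and 10.8 in TUN. Slco1c1 (ENSMUSG00000030235.17, chromosome 6, 141524368 to 141570177), which lies near Slco1a4, stood at 49.4 CPM in T14 and 39.4 in T10, with 21.5 in T8 and 25.5 in TUN, a 2.30-fold range. Tek (ENSMUSG00000006386.15, chromosome 4, 94739289 to 94874976), the receptor for angiopoietins that stabilises vessels, stood at 13.9 CPM in T14 and 11.2 in T10, with 5.07 in T8 and 4.64 in TUN, a 3.0-fold range. Neither Slco1c1 nor Tek passed the test (edgeR adjusted p = 1 each), and their values had the same high and low libraries as those of Slco1a4 and Abcb1a.

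The other members were more even. Slc2a1 (ENSMUSG00000028645.10, chromosome 4, 119108711 to 119137983) stood at 135 CPM in T14 and 102 in T10, with 100 in T8 and 94.3 in TUN, a 1.43-fold range. Its exons overlap those of the antisense gene Gm12868 by 105 bases, but that gene had at most 7 counts in a library. Slc2a1 is also expressed outside vessels, so its level is not an endothelial measure alone. Mfsd2a (ENSMUSG00000028655.11, chromosome 4, 122946850 to 122961188) stood at 84.2 CPM in T14 and 82.3 in T10, with 112 in T8 and 72.1 in TUN. Abcg2 (ENSMUSG00000029802.13, chromosome 6, 58584523 to 58695676) stood at 59.3 CPM in T14 and 60.2 in T10, with 77.0 in T8 and 77.0 in TUN, with T8 and TUN the higher. So the 2 efflux pump genes ran in different orders, Abcb1a being lowest in T8 and TUN, where Abcg2 was highest.

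Cldn5 (ENSMUSG00000041378.1, chromosome 16, 18776847 to 18778260) stood at 68.0 CPM in T14 and 41.3 in T10, with 63.8 in T8 and 73.8 in TUN, lowest in T10. Cdh5 (ENSMUSG00000031871.8, chromosome 8, 104101625 to 104144502) was the most even member, at 21.2 CPM in T14 and 19.8 in T10, with 18.6 in T8 and 19.4 in TUN, a 1.14-fold range. Plvap (ENSMUSG00000034845.5, chromosome 8, 71497754 to 71511769) stood at 18.2 CPM in T14 and 13.5 in T10, with 14.9 in T8 and 13.6 in TUN, a 1.35-fold range. None of these, nor Slc2a1, Mfsd2a or Abcg2, passed the edgeR test (adjusted p = 1 each), which does not show that they were equal between tumours. In all, 4 of the 10 members spanned 2-fold or more between their highest and lowest tumour, against 29.1% of the genes tested, and their median range was 1.67-fold against 1.57-fold. T14 and T10 were the 2 highest libraries for 6 of 10 members, against 33.0% of the genes tested.

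Set against Plvap, the transporters did not move as a block. The mean log2 level of the 6 transporters minus that of Plvap, on the log2(RPKM + 0.1) scale, was 0.41 in T14 and 0.69 in T10, with -0.12 in T8 and 0.02 in TUN, and averaged 0.25 ± 0.37 (SD, n = 4; two-sided exact sign-flip p = 0.375, where 4 tumours allow no p under 0.13). The direction of this mean turned under several settings: without Slc2a1 the difference was -0.11, with the median in place of the mean -0.0434, and without Mfsd2a and Abcg2 -0.26. It was 0.10 without T10 and 1.48 in CPM, without length correction. T10 and T14 had the higher ratios of transporters to Plvap, and T8 the lowest.

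Single genes fell on either side of Plvap. Cldn5 stood above it by 2.51 ± 0.35 log2 units, Mfsd2a by 2.36 ± 0.30 and Slc2a1 by 2.03 ± 0.08 (SD, n = 4), each in 4 of 4 tumours and with or without length correction (exact sign-flip p = 0.13 each, 0.161 adjusted over the 9 genes). The ratio of Slc2a1 to Plvap was the steadiest, between 1.94 in T8 and 2.11 in T10. Abcg2 stood 0.17 ± 0.35 above Plvap, in 3 of 4 tumours, and 2.18 ± 0.35 above it in CPM, in 4 of 4. Tek lay below Plvap in 4 of 4 tumours, with a mean ratio of -2.09 ± 0.66, and of -0.93 ± 0.70 in CPM. Cdh5 (-0.57 ± 0.16), Abcb1a (-1.37 ± 0.86) and Slco1a4 (-1.44 ± 1.17) lay under Plvap in 4 of 4 tumours and Slco1c1 (-0.25 ± 0.47) in T8 and TUN, but these directions turned in CPM, where the means were 0.40, 0.0388, 0.18 and 1.10. Gene length shifts such a ratio by nearly the same amount in each tumour, so the spread between tumours depends little on it. Slco1a4 lay 0.61 log2 units under Plvap in T14 (-0.61) and at -0.27 in T10, -2.58 in T8 and -2.29 in TUN. Abcb1a lay at -0.81 in T14 and -0.49 in T10, with -2.34 in T8 and -1.83 in TUN.

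**Figure D2:**
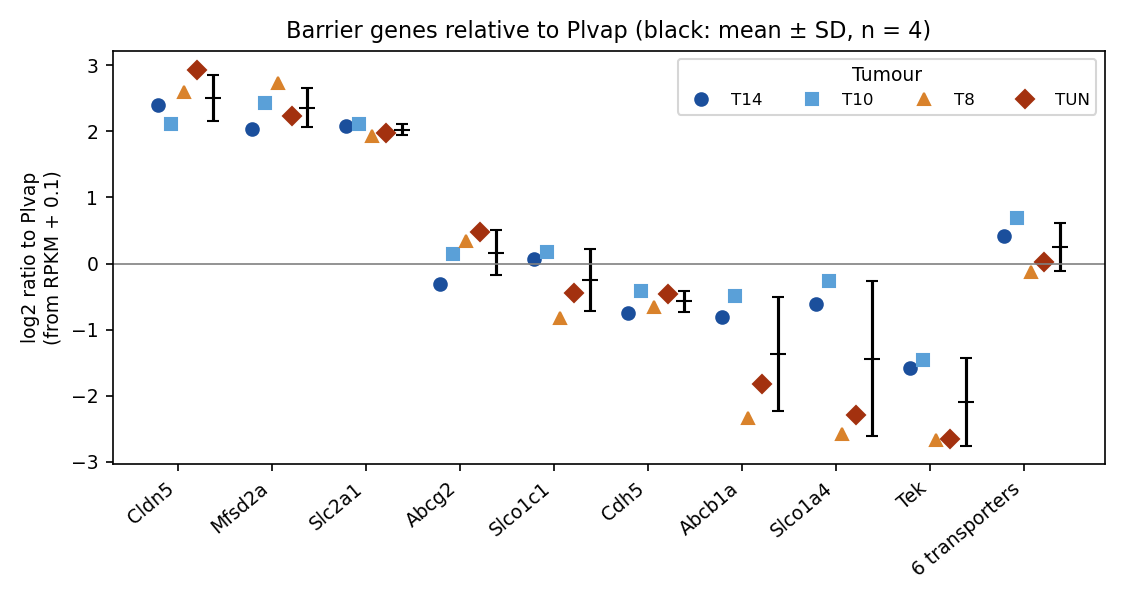
Log2 ratio of each gene to Plvap, and of the mean of the 6 transporters to Plvap, per tumour, from RPKM + 0.1, with the mean and SD of the 4 tumours in black. Cldn5, Mfsd2a and Slc2a1 lie above 0 in every tumour, while Slco1a4 and Abcb1a lie near Plvap in T14 and T10 and further below it in T8 and TUN.

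The amount of endothelial RNA was described with 18 genes that endothelial cells in general express, such as Pecam1, Kdr, Flt1, Tie1 and Eng. In bulk tumours, fewer cells of a type and less RNA per cell cannot be told apart. All 18 were at 1 CPM or more in every tumour, and 0 of 18 passed the edgeR test, of which 1, Cd93, had an unadjusted p under 0.05. Their summed level was 459 CPM in T14 and 421 in T10, with 553 in T8 and 573 in TUN, a 1.36-fold range. That order turned without Cd93: the other 17 genes summed to 397 CPM in T14 and 336 in T10, with 368 in T8 and 336 in TUN. The most abundant were Cd93, at 61.7 CPM in T14 and 85.4 in T10, with 185 in T8 and 237 in TUN (edgeR adjusted p = 0.186), Flt1 at 57.0 ± 12.9 CPM and Eng at 42.6 ± 4.38 CPM (SD, n = 4). Pecam1, the adhesion molecule of endothelial contacts, stood at 31.5 CPM in T14 and 30.2 in T10, with 38.7 in T8 and 31.5 in TUN. T14 and T10 were the 2 highest libraries for 2 of the 18 genes, and 2 of 18 spanned 2-fold or more, against 33.0% and 29.1% of the genes tested.

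Relative to the mean of these 18 genes, the transporters stood 1.19 ± 0.47 log2 units higher (SD, n = 4; exact sign-flip p = 0.13), at 1.57 in T14 and 1.64 in T10, with 0.78 in T8 and 0.79 in TUN. The difference was 0.73 against Pecam1 alone and 0.69 without Mfsd2a and Abcg2, where it lay above 0 in 3 of 4 tumours. It was carried mainly by Mfsd2a (3.30 ± 0.27) and Slc2a1 (2.97 ± 0.22). Abcg2 (1.11 ± 0.19) and Slco1c1 (0.69 ± 0.58) lay between, and Abcb1a (-0.42 ± 0.97) and Slco1a4 (-0.49 ± 1.28) averaged below 0. Slco1a4 per endothelial signal was 0.55 in T14 and 0.69 in T10, with -1.68 in T8 and -1.52 in TUN, and Abcb1a 0.35, 0.46, -1.44 and -1.06 in the same order. Tek stood at -0.42 in T14 and -0.51 in T10, with -1.78 in T8 and -1.88 in TUN, and Slco1c1 at 1.23, 1.13, 0.08 and 0.33. The mean of the 18 genes itself moved little, from 0.16 log2 units below its average in T10 (-0.16) to 0.07 above it in T14, so these ratios mostly repeat the CPM values, and the part of endothelial content in them was not tested. Plvap per endothelial signal was 1.16 in T14 and 0.95 in T10, with 0.90 in T8 and 0.77 in TUN, and averaged 0.94 ± 0.16 (exact sign-flip p = 0.13). This mean was 0.48 against Pecam1 alone, and without length correction it turned to -0.19. Cdh5 stayed between 0.24 in T8 and 0.53 in T10.

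**Figure D3:**
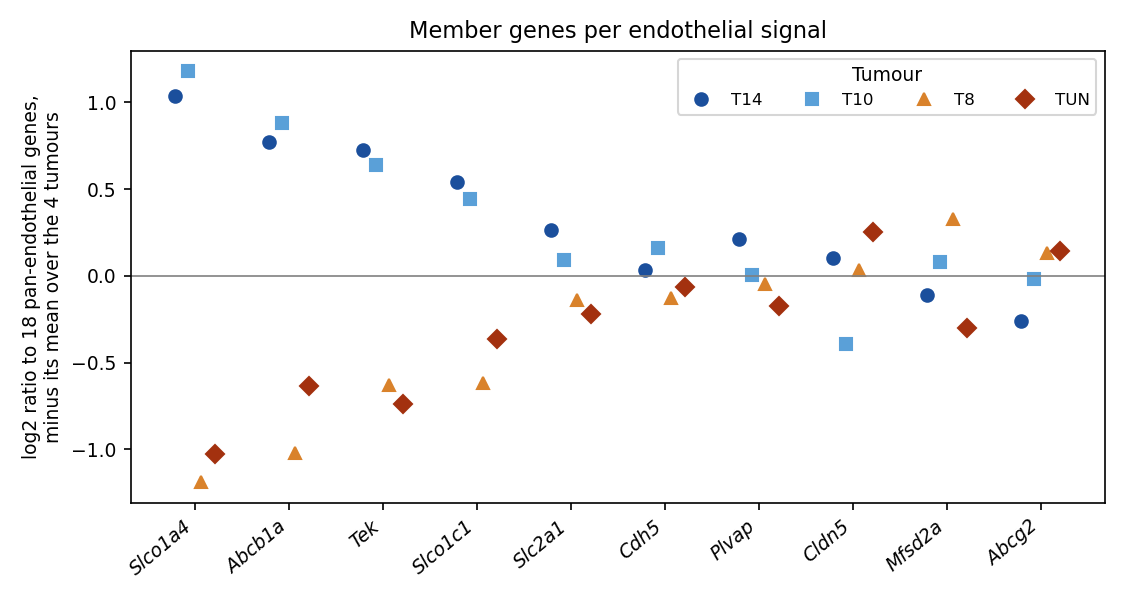
Log2 ratio of each of the 10 genes to the mean of 18 pan-endothelial genes, centred on its own mean over the 4 tumours. Slco1a4, Abcb1a, Tek and Slco1c1 are above their mean in T14 and T10 and below it in T8 and TUN, and Cdh5, Plvap, Cldn5, Mfsd2a, Abcg2 and Slc2a1 spread less.

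Other carriers and receptors of the barrier ran in several orders. T14 and T10 were the 2 highest libraries for 5 of 17, near the share of 33.0% over all genes tested. Of 18 such genes 17 were tested and 0 passed the edgeR test, with 2 at an unadjusted p under 0.05, and their median range was 1.84-fold. Bulk RNA does not say which cells gave these counts, nor those of the junction, Wnt and activated endothelium genes below. Slc22a8, an organic anion transporter, followed Slco1a4, at 11.7 CPM in T14 and 16.2 in T10, with 3.27 in T8 and 2.95 in TUN (edgeR adjusted p = 0.314). Slc7a5, the large neutral amino acid transporter that dividing cells also use, ran the other way, at 288 CPM in T14 and 563 in T10, with 1205 in T8 and 760 in TUN (edgeR adjusted p = 0.238), as did its partner Slc3a2 at 222, 295, 583 and 442. The amino acid transporter gene Slc38a3 was even, at 229 ± 32.3 CPM (SD, n = 4). The transferrin receptor gene Tfrc stood at 106 CPM in T14 and 115 in T10, with 48.3 in T8 and 58.8 in TUN.

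Of the partners of Cldn5 in tight junctions, 11 of 12 genes were tested and 0 passed the edgeR test, with 2 at an unadjusted p under 0.05. The most abundant were even, with the adhesion gene Jam2 at 286 ± 22.6 CPM and the scaffold gene Tjp1 at 235 ± 18.7 CPM (SD, n = 4). The tetraspan protein gene Ocln stood at 19.1 CPM in T14 and 9.40 in T10, with 4.19 in T8 and 4.02 in TUN (edgeR adjusted p = 0.552), and Marveld2, of junctions between 3 cells, at 7.06, 2.40, 1.09 and 1.07 CPM (edgeR adjusted p = 0.213). Cldn3 had 1 to 5 counts per library.

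Wnt and transcription factor genes that induce the barrier gave 0 calls of 19 in edgeR, with 0 at an unadjusted p under 0.05. The most abundant were Ctnnb1, the effector beta-catenin, at 1560 ± 168 CPM, and the receptor complex genes Lrp6 at 123 ± 15.0 CPM (SD, n = 4) and Tspan12 at 73.3 to 112 CPM. The ligand genes Wnt7a and Wnt7b stood at 36.8 ± 8.22 and 89.2 ± 35.1 CPM (SD, n = 4). Wnt7b was at 49.7 CPM in T14 and 69.7 in T10, with 120 in T8 and 117 in TUN, the reverse of the order of Slco1a4, while Wnt7a was at 45.2, 42.4, 30.4 and 29.1 CPM. Their coreceptor genes Adgra2 and Reck stood at 22.2 ± 5.46 and 8.19 ± 2.47 CPM, and the receptor gene Fzd4 at 8.77 ± 1.41 CPM. The endothelial factor genes Foxf2 and Foxq1 stood at 7.62 ± 1.87 and 3.27 ± 0.777 CPM.

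Genes of activated, fenestrated and sprouting endothelium, to which Plvap belongs by function, did not share the order of Slco1a4. Of 18 genes, 14 were tested and Cav1 alone passed the edgeR test (adjusted p = 0.0419), at 37.5 CPM in T14 and 23.4 in T10, with 35.2 in T8 and 121 in TUN. T14 and T10 were the 2 highest libraries for 0 of the 14, against 33.0% of the genes tested. Angpt2, the Tek ligand that destabilises vessels, stood at 25.4 CPM in T14 and 24.3 in T10, with 59.8 in T8 and 45.1 in TUN, and the tip cell gene Apln at 41.1, 42.7, 89.1 and 82.8 CPM. The growth factor binding protein gene Igfbp3 (449 ± 166 CPM) and the adhesion gene Vcam1 (85.5 CPM in TUN and 52.4 to 54.2 CPM elsewhere) were highest in TUN. Neither Angpt2 nor Apln passed (edgeR adjusted p = 1 each), and both had their higher values in the tumours where Tek was low. The leukocyte adhesion genes Sele and Selp stayed under 1 CPM in every tumour, at 3 to 13 and 2 to 6 counts, and Gpihbp1, of peripheral capillaries, had 3 counts in T8 and 0 in the other tumours, which allows up to 0.134 CPM.

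Like Slco1a4, Abcb1a, Slco1c1 and Tek, the summed markers of neurons, astrocytes and mature oligodendrocytes were higher in T14 and T10 than in T8 and TUN. The 8 neuron markers summed to 3225 CPM in T14 and 2551 in T10, with 299 in T8 and 153 in TUN. By the edgeR test, which called 4.34% of all genes, 8 of 8 passed, led by Rbfox3, Stmn2, Snap25 and Gad1, with Nefm also abundant. The 12 astrocyte markers, among them the endfoot water channel gene Aqp4, summed to 7765, 5342, 2753 and 2586 CPM in the same order (6 of 12 past the test, led by Gjb6, Gja1, Aldh1l1 and Aldoc, with Slc1a3, Slc1a2 and Gfap the most abundant). The 8 mature oligodendrocyte markers summed to 3729, 5017, 1056 and 1029 CPM (6 of 8, led by Mobp, Mal, Mog and Mbp). Mitosis markers, mostly Top2a, Mki67 and Cdk1, ran the other way, at 705, 716, 1280 and 1683 CPM (0 of 8 past the test, 2 at an unadjusted p under 0.05). Oligodendrocyte precursor markers, with Olig1, Ptprz1 and Pdgfra the most abundant, summed to 9250, 10730, 15007 and 12114 CPM (0 of 8, and 0 at an unadjusted p under 0.05). Pericyte markers summed to 929, 1149, 1203 and 1132 CPM (0 of 12, 2 at an unadjusted p under 0.05), but most of this was Cspg4, which oligodendrocyte precursors also express. Without Cspg4 the other 11 summed to 360.2 CPM in T14 and 349 in T10, with 251 in T8 and 186 in TUN, so that this sum too was higher in T14 and T10. Gene by gene, T14 and T10 were the 2 highest libraries for 5 of the 12 pericyte markers, against 33.0% of the genes tested. Pdgfrb stood at 48.1 ± 6.67 CPM, while Atp13a5 stood at 19.5 CPM in T14 and 19.1 in T10, with 6.91 in T8 and 2.99 in TUN, and Rgs5 at 116, 117, 59.0 and 40.2 CPM. Microglia markers, with C1qa and C1qc among the most abundant, summed to 785, 619, 728 and 859 CPM (0 of 10, and 0 at an unadjusted p under 0.05). Fibroblast markers, mostly Fn1, Col1a1 and Col3a1, summed to 484, 567, 624 and 705 CPM (0 of 6 tested, 2 at an unadjusted p under 0.05). The low-count filter dropped Ogn and Slc6a13 of this list, so they were not tested. Ogn stood at 4.66 CPM in T14 and 8.30 in T10, with 0.335 in T8 and 0.447 in TUN, and Slc6a13 at 6.39, 7.45, 0.503 and 0.223 CPM. Without Fn1 and Col1a1 the other 6 of the 8 listed genes summed to 188, 210.4, 67.2 and 181 CPM, lowest in T8. These sums without single genes were added after the values were seen. Smooth muscle markers, mostly Mylk, Tagln and Myl9, summed to 82.4, 62.4, 33.3 and 64.9 CPM (0 of 4 tested, 1 at an unadjusted p under 0.05). Here the filter dropped Cnn1, under 1 CPM in every tumour, and Myh11, at 2.17, 4.11, 0.251 and 0.268 CPM in the same order. No marker of these lists was at 0 in every library, and the part of these cells in the result was not tested.

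**Figure D4:**
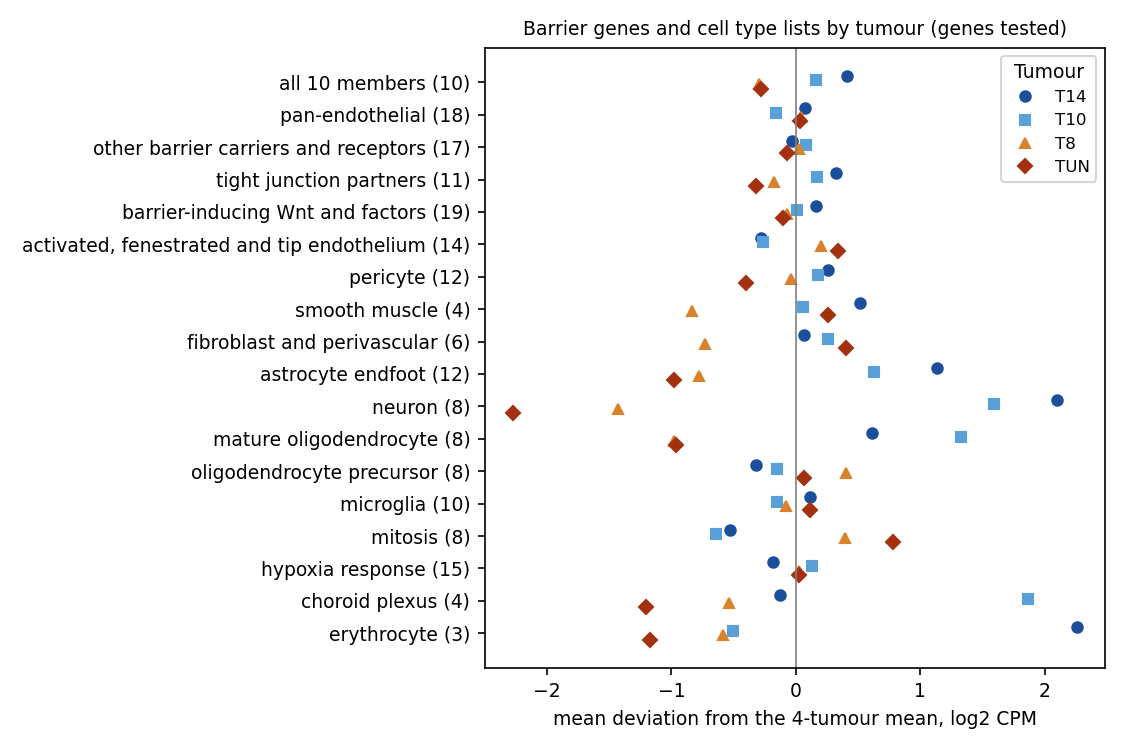
Mean deviation of each gene list from its mean over the 4 tumours, in log2 CPM, with the number of genes tested in brackets. The mean over the 10 barrier genes is higher in T14 and T10, which are the 2 highest libraries for 6 of the 10, the pan-endothelial mean lies between -0.16 in T10 and 0.07 in T14, and neuron, astrocyte and mature oligodendrocyte genes are highest in T14 and T10.

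Choroid plexus tissue expresses Slco1c1 and has fenestrated, Plvap-bearing vessels. Its marker Ttr was highest in T10, at 34.0 CPM in T14 and 579 in T10, with 36.9 in T8 and 3.35 in TUN. Plvap stood at 13.5 CPM in T10 and 13.6 in TUN, a gap within counting error, and Slco1c1 was highest in T14. Enpp2 and Clic6 of the same list were also highest in T10, and 1 of the 4 genes tested, Ttr, passed. Kcnj13 had 0 counts in T8 and TUN. Slc2a1 also responds to hypoxia, and of 15 hypoxia genes Car9 alone passed the edgeR test, at 147 CPM in T10 and 0.982 to 2.57 CPM elsewhere, while Ldha, Pgk1 and P4ha1 were the most abundant. The summed hypoxia list stood at 1087 CPM in T14 and 1052 in T10, with 1554 in T8 and 1657 in TUN, with Ldha and Pgk1 its largest parts. The mean log2 deviation over its 15 genes, Car9 among them, ran in another order. It was -0.18 in T14 and 0.13 in T10, with 0.02 in T8 and 0.03 in TUN. Slc2a1 was highest in T14. Whether these tissues or states had a part in the levels was not tested.

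Genes whose pattern over the 4 tumours was most like that of a member were sought by the root mean square difference of centred log2 CPM, among 12030 genes at mean CPM 5 or more. Nearest to Slco1a4, chosen for this after its values were seen, were Dach1 (0.03), Unc80 (0.06), Tmem28 (0.10), Cend1 (0.10) and Sparcl1 (0.10). Sparcl1 stood at 2190 CPM in T14 and 1886 in T10, with 485 in T8 and 476 in TUN. Nearest to Plvap were Zfp444, Arl6ip5, Thap3, Saysd1 and Slc25a46, at 0.02 to 0.03, and nearest to Slc2a1 were Fuk, Zcchc24, Tex264, Dyrk1b and Grb2, at 0.02 to 0.03. Nearest to Cldn5 were 2310009A05Rik, Tspan4, Pop5, Mettl15 and Yipf5, at 0.04 to 0.07. Even patterns have many near neighbours: 341 genes lay within 0.1 of Plvap and 3 of Slco1a4.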

How the data were processed

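PolyA RNA of 4 mouse tumours was measured by sequencing of TruSeq libraries, which do not mark strand, on a HiSeq2500, per the labels' protocols. The authors deposited whole-number read counts per gene, for which the submitters' processing notes name STAR, featureCounts and mm10; the table names GENCODE vM8. The sources used here do not state versions, the strand setting or the treatment of multiply mapped reads. Gene length (another deposited column, other than counts) is the merged exon length. Of 46946 identifiers, 46451 had a symbol in the reference tables, and where a symbol occurred repeatedly the identifier with the higher counts was kept.

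The columns T14, T10, T8 and TUN cannot be matched to single sample titles and entered as the tumours of 1 group, and 0 sample columns were left aside. Totals were 21664889 to 24369339 counts, and a count of 0 allows up to 3 counts. Counts were scaled with TMM in edgeR 4.0.16 (R 4.3.3) and given as CPM or RPKM. Variation between tumours was tested with an edgeR model with 1 mean per gene at the trended dispersion after the default low-count filter, its residual deviance against a chi-square distribution, with Benjamini-Hochberg adjustment over 14266 genes and a threshold of 0.05. p-values measure only the spread between these samples, which may be technical. Ratios used log2(RPKM + 0.1) with two-sided exact permutation of signs over 4 tumours. The goodness of fit and the sign permutation were tested on simulated data. DESeq2 1.42.0 was an alternative.

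The members and gene lists were chosen with earlier results of these data known. Named genes were to be the 10 members, the 3 most abundant of each list, up to 4 called per list, near-identical paralogs and the 5 nearest in pattern to Cldn5, Plvap and Slc2a1. Some genes that this rule names are not reported here. Others were named after their values were seen, among them Slc22a8, Tfrc, Ocln, Marveld2, Cldn3, Wnt7a, Wnt7b, Adgra2, Reck, Fzd4, Foxf2, Foxq1, Angpt2, Sele, Selp, Gpihbp1, Atp13a5, Ogn, Slc6a13, Myh11, Cnn1, Pecam1, Aqp4 and Kcnj13. The promoter motifs were also chosen then.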

Additional observations from a re-analysis of the deposited data

Results flagged for a closer look

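Of 48 values checked over the 4 tumours, 2 had a tumour far from the other 3, by the gap to its nearest neighbour as a share of the whole range (above Dixon's critical value for 4 samples), and chance flags about 1 in 20. The summed choroid plexus markers stood apart in T10 (a share of 0.910), at 1342 CPM, with 344 to 434 CPM elsewhere. Enpp2 was the largest part of this sum in each tumour, at 327 CPM in T14 and 708 in T10, with 300 in T8 and 426 in TUN. The summed erythrocyte markers stood apart in T14 (a share of 0.916), at 81.8 CPM, with 5.0 to 11.5 CPM elsewhere; 2 of its 3 tested genes, Hbb-bs and Hba-a1, passed the edgeR test. None of the 10 barrier genes or their ratios was flagged in this way.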

How the results depend on the processing

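No paired analysis was possible because all 4 tumours form 1 group. The count of members past the goodness of fit was 1 with RLE scaling run in edgeR, the method of DESeq2 size factors, and with the common dispersion. It was 0 with library totals, without the low-count filter and with any tumour left out (0 to 0). As DESeq2 dispersion outliers it was 0 too, under a stricter rule that called 0.547% of all genes. The adjusted edgeR p of Slco1a4 was 0.0553 with library totals, 0.127 without the low-count filter and 0.102 to 0.261 with a tumour left out. The transporters minus Plvap turned to -0.11 without Slc2a1, -0.0434 with the median of the transporters and -0.26 without Mfsd2a and Abcg2, a setting chosen after seeing the data, and ranged from 0.10 to 0.37 with a tumour left out. Without length correction, Plvap minus the pan-endothelial genes turned to -0.19, and the ratios to Plvap of Abcb1a (0.0388), Slco1a4 (0.18), Slco1c1 (1.10) and Cdh5 (0.40) turned as well, so that 8 of 9 genes stood above Plvap instead of 4. Those settings differ in gene length, and in that the same added 0.1 weighs less beside a CPM than beside an RPKM. The transporters minus the pan-endothelial genes stayed above 0 under all 13 alternatives run, from 0.69 to 1.33. None of these left out both Mfsd2a and Slc2a1, which mainly carried the difference, so its sign without this pair was not tested. The number of separated neighbours in the order of levels was 2, and 3 without length correction. The lowest value of any of the 10 members was 104 counts. With 4 tumours the exact test cannot pass its threshold, so it says nothing on stability.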
